A study of Mus musculus with 4 samples.

Results

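The genes described here encode the translation initiation factors (eIF) and elongation factors (eEF) of the mouse, with their regulators. They were taken by symbol: every gene whose platform symbol begins with Eif or Eef followed by a digit, apart from Eif2ak3. This gave 51 genes, measured by 109 probe sets, of the 10923 genes with a probe set of a single symbol. RNA came from regenerating mouse liver (strain C57BL6/J, males, 6 to 13 weeks old). The knockdown group (siOrm, 2 arrays) had 1 injection of siRNA against Orm1, which encodes the acute phase protein orosomucoid, in Invivofectamine 3.0, a lipid reagent that carries nucleic acid to the liver. After 3 days 40% of the liver was removed by partial hepatectomy (PH), and expression was measured 48 hours after PH. Of the controls (2 arrays) the labels say only siControl and control livers; whether they had the same injection is not spelled out, and no unoperated liver is among the 4 samples. By their titles, siOrm replicates 1 and 2 might instead be knockdowns of Orm1 and Orm2. How many mice stand behind each array is not stated, so the p-values cover the spread between arrays, technical spread possibly included.

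Initiation of translation begins when the factor eIF2 brings the initiator tRNA to the small ribosomal subunit, which eIF1, eIF1A, eIF3 and eIF5 prepare for scanning. The complex eIF4F, made of the cap-binding protein eIF4E, the scaffold eIF4G and the RNA helicase eIF4A, loads this assembly on the capped mRNA, and eIF5B then joins the large subunit. Elongation uses eEF1A, which delivers aminoacyl-tRNA, the exchange factor eEF1B, and eEF2, which moves the ribosome along the mRNA. Growing cells, hepatocytes after PH among them, raise protein synthesis, largely through control of eIF4E by its binding proteins and of eIF2 by phosphorylation, neither of which an RNA array sees.

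Values are log2 signals from which the probe set's own median over the 4 arrays was subtracted, averaged over the probe sets of a gene, and a difference is the siOrm mean minus the siControl mean of such values. Base 2 was assumed for the logarithm, since no source used here names it. Because each probe set was centred, neither its level nor its distance from background can be seen, and no gene can be called higher than another. In bulk tissue fewer cells of a type and less RNA per cell cannot be told apart. Orm1 itself stood at 0.015 and 0.19 for siControl replicates 1 and 2, and -0.24 and -0.015 for siOrm replicates 1 and 2, a difference of -0.23 (SE 0.15) with both siOrm arrays lower; limma's adjusted p was 0.994, above the threshold, so this check of the knockdown labels did not pass. Of the 10 hepatocyte markers listed, 8 were measured, with list means of 0.023 and -0.059 in siControl and 0.029 and 0.011 in siOrm; whether they are abundant cannot be read from centred values.

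None of the 51 translation factor genes passed the test between the groups. Over all genes 0 passed at an adjusted p under 0.05 (limma with Benjamini-Hochberg adjustment, a share of 0%), and the smallest adjusted p of a translation factor was 0.994. An unadjusted p under 0.05 was reached by 2 of the 51, a share of 3.92% against 4.76% of all genes: Eif1a, which encodes the scanning factor eIF1A and was lower in siOrm, and Eif4a2, which encodes an eIF4A helicase and was higher. The mean was lower in siOrm for 36 genes and higher for 15, where it was lower for 5221 and higher for 5702 of all 10923 genes. The groups did not overlap for 19 genes: siOrm was the lower group for 15 and the higher for 4, or 29.4% and 7.84% of the genes, beside 15.3% and 17% of all genes. Such genes are called below and above here. The median difference of the 51 was -0.092, where that of all genes was 0.0084.

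**Figure D1:**
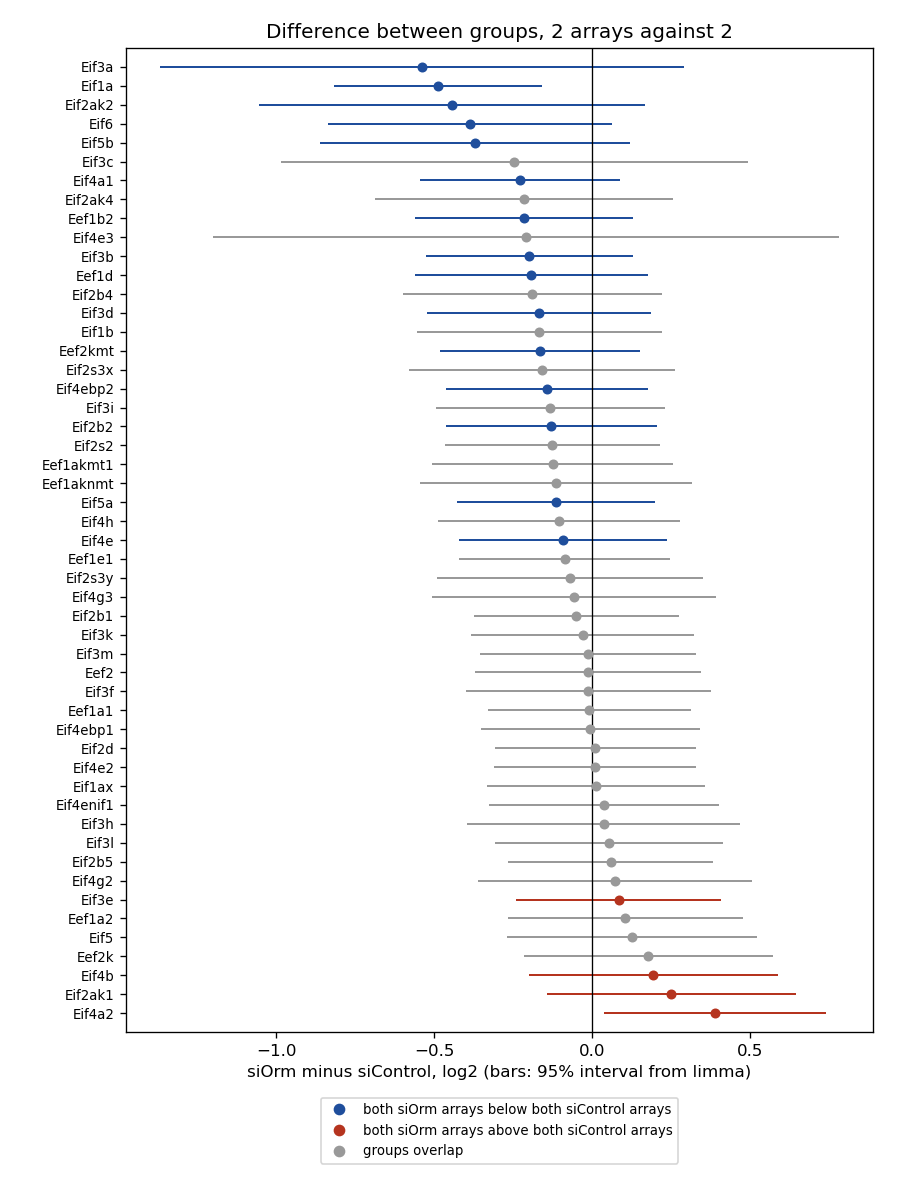
Difference between the group means for each of the 51 genes (x axis, log2, siOrm minus siControl), with the 95% interval of limma as a bar and genes sorted by difference. The points run from -0.54 for Eif3a to 0.39 for Eif4a2, and 49 of the 51 unadjusted intervals include 0.

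These differences were small. They stayed under 0.1 in size for 20 genes and exceeded 0.3 for 6, a share of 11.8% against 14% of all genes. Standard errors ran from 0.126 to 0.398 with a median of 0.146, and the median over all genes was 0.151. For 48 of the 51 genes the 95% interval lay within 1 log2 unit of 0; the exceptions were Eif3a, Eif4e3 and Eif2ak2. Within groups, the difference of replicate 1 and replicate 2 had a standard deviation over the 51 genes of 0.35 in siControl and 0.16 in siOrm, beside 0.38 and 0.25 over all genes.

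The arrays did not share the extremes evenly. SiControl replicate 2 held the highest value for 20 of the 51 genes (39.2%, against 28.1% of all genes) and siControl replicate 1 for 19 (37.3%, against 27.3%). The lowest value fell in siOrm replicate 1 for 23, or 45.1% against 28.4% of all genes. It fell in siControl replicate 2 for 17, or 33.3% against 38.9%. The medians over the 51 genes came to 0.032 and 0.017 for siControl, then -0.056 and 0.0004 in siOrm, with siOrm replicate 1 the lowest. Without siOrm replicate 1 the median difference was -0.014, with 15 genes below and 9 above, where 23.5% and 29.2% of all genes were so placed. Without siControl replicate 1 the counts were 24 below and 18 above (33.8% and 44.6% of all genes), and without siControl replicate 2 they were 30 and 10 (36.8% and 31.6%). Without siOrm replicate 2 they were 27 and 7 (32.4% and 32.4%). The median of the 51 genes was therefore near 0 once siOrm replicate 1 was left out, while more genes were still below than above.

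**Figure D2:**
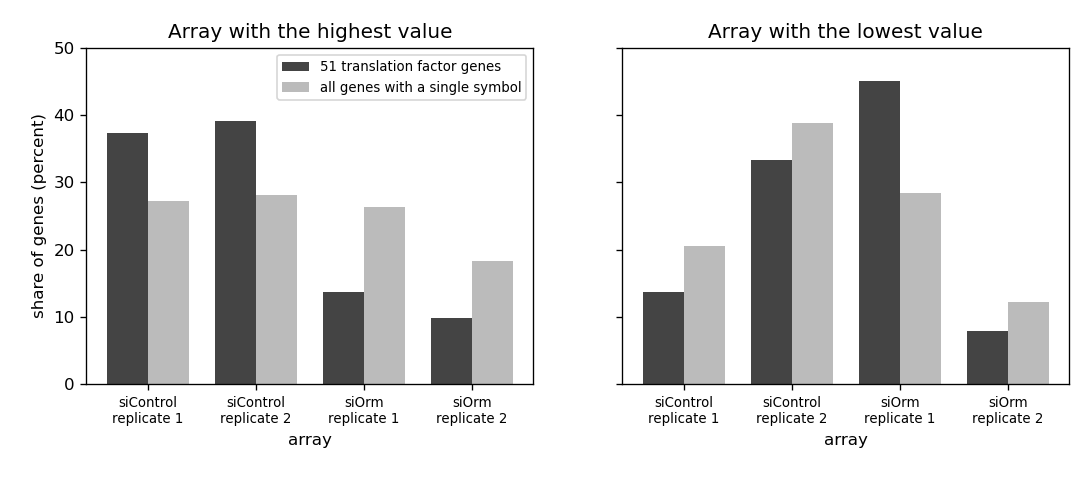
Share of genes (y axis, percent) whose highest value (left) or lowest value (right) fell in each of the 4 arrays, for the 51 translation factor genes (dark bars) and all genes (light bars). SiOrm replicate 1 held the lowest value for 45.1% of the translation factor genes against 28.4% of all genes.

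The factors that act on the scanning ribosome and join its subunits held the gene with the smallest p. Of 7 genes (Eif1a, Eif1ax, Eif1b, Eif2d, Eif5, Eif5b and Eif6), 3 were below and 0 above, beside 15.3% and 17% of all genes. The median difference was -0.17. That median was -0.32 without siControl replicate 1 and -0.063 without siControl replicate 2. Over the 5 of the 7 genes with probe sets without shared sequence, which leave out Eif1a and Eif6, it was 0.16. Names ending in _a_at, _s_at or _x_at were dropped for this, and _a_at need not mean sequence shared with another gene. Eif1a stood at 0.28 and 0.19 for siControl replicates 1 and 2, and -0.19 and -0.32 for siOrm replicates 1 and 2. Its siOrm arrays were both lower, with a difference of -0.49 (SE 0.13, 95% interval -0.82 to -0.16) and limma's unadjusted p of 0.0115. Its probe sets, of which there were 2, differed by -0.47 and -0.50, and when any array was left out the difference stayed between -0.55 and -0.43. Eif1ax, the X-linked gene for nearly the same protein, had overlapping groups, at 0.0087 and -0.14 in siControl against -0.12 and 0.013 in siOrm and a difference of 0.012 (SE 0.14). The name of 1 probe set of Eif1a ends in the array maker's mark for sequence shared with other transcripts, so related transcripts may add to it.

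Eif6, whose product keeps the large subunit from joining too early, stood at 0.038 and 0.37 for siControl replicates 1 and 2, and -0.33 and -0.038 for siOrm replicates 1 and 2. Both siOrm arrays were lower, with a difference of -0.39 (SE 0.18), but the siControl arrays lay far apart. Eif5b, the subunit joining GTPase, stood at 0.0054 and 0.46 in siControl against -0.26 and -0.019 in siOrm, a difference of -0.37 (SE 0.20). All 3 of its probe sets were lower in siOrm, from -0.80 to -0.095, and the gene's difference shrank to -0.14 without siControl replicate 2. Eif5, the activator of eIF2's GTPase, went the other way on average, at 0.033 and -0.26 in siControl against -0.064 and 0.086 in siOrm and 0.13 (SE 0.16), with overlapping groups. Among its 4 probe sets 3 were higher in siOrm and 1 was lower, at -0.27, and its value in siControl replicate 2 ran from -0.55 to 0.46 over these probe sets. Eif1b, close in sequence to the start-codon factor eIF1, differed by -0.17 (SE 0.16), and Eif2d, an alternative factor for tRNA delivery, by 0.0097 (SE 0.13); both had overlapping groups.

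Genes of eIF2 and its exchange factor eIF2B, which set the supply of initiator tRNA, had their lowest value in siOrm replicate 1 in 7 of 7 cases, where 28.4% of all genes did. Of 7 genes, 6 had a lower mean in siOrm, but for only 1, Eif2b2, did the groups not overlap, and the median difference was -0.13. Without siOrm replicate 1 this median was 0.0072. Leaving out siOrm replicate 2 gave -0.20, and leaving out siControl replicate 2 gave -0.066. The array medians of the 7 were 0.0001 and -0.0001 for siControl, then -0.14 and 0.021 for siOrm. Eif2b4, the delta subunit of eIF2B, stood at 0.080 and -0.017 in siControl against -0.33 and 0.017 in siOrm, with siOrm replicate 1 apart from the others; its difference of -0.19 (SE 0.17) became -0.014 without that array. Eif2s3x, the X-linked gene for the gamma subunit of eIF2, stood at 0.090 and -0.059 in siControl against -0.32 and 0.033 in siOrm and turned from -0.16 to 0.018 in the same way. Its 3 probe sets differed by -0.50, 0.020 and 0.0080, and the first of them stood at -0.89 in siOrm replicate 1. Its Y-linked partner Eif2s3y had its lowest value in the same array, at -0.017 and 0.017 in siControl against -0.26 and 0.12 in siOrm. Eif2s2, the beta subunit, differed by -0.13 (SE 0.14), with 4 of its 5 probe sets lower in siOrm and 1 higher. Eif2b1 differed by -0.050 and Eif2b2 by -0.13, while the catalytic subunit Eif2b5 differed by 0.059, at 0.0001 and -0.0001 in siControl against -0.0046 and 0.12 in siOrm. In Eif2b5, siOrm replicate 1 was thus the lowest array only by a narrow margin.

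The kinases that phosphorylate eIF2 alpha and so restrain initiation went in different directions. Eif2ak1, the heme-regulated kinase, stood at 0.041 and -0.19 for siControl replicates 1 and 2, and 0.30 and 0.062 for siOrm replicates 1 and 2; both siOrm arrays were higher, by 0.25 (SE 0.16), and all 3 probe sets were higher, from 0.15 to 0.44. The last of these owed its size to siOrm replicate 1, at 0.89. Eif2ak2 encodes PKR, the kinase that senses double-stranded RNA and is induced by interferon. It stood at -0.014 and 0.68 in siControl against -0.19 and -0.035 in siOrm, a difference of -0.44 (SE 0.25), but its 2 probe sets disagreed. The first stood at 0.092 and 1.37 in siControl against -0.39 and -0.092 in siOrm, the second at -0.12 and -0.017 in siControl against 0.017 and 0.022 in siOrm, so the gene's value was that of a single probe set in siControl replicate 2. Without probe sets that lay more than 1 from the row median in any array, an alternative chosen after seeing the data, Eif2ak2 differed by 0.087. Eif2ak4, the amino acid sensor GCN2, stood at -0.047 and 0.12 in siControl against -0.40 and 0.047 in siOrm; its difference of -0.22 (SE 0.19) rested on siOrm replicate 1 and was 0.0095 without it.

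Of the subunits of eIF3, the scaffold on which the other factors gather, some had their highest and some their lowest value in siControl replicate 2. Of 11 subunit genes, 3 were below (Eif3a, Eif3b and Eif3d) and 1 was above (Eif3e), beside 15.3% and 17% of all genes. The median difference was -0.030, with a range of -0.10 (without siControl replicate 1) to -0.013 (without siOrm replicate 1) when an array was left out. In siControl replicate 2, 5 of the 11 had their highest value (Eif3a, Eif3b, Eif3c, Eif3d and Eif3m) and 5 their lowest (Eif3e, Eif3f, Eif3h, Eif3k and Eif3l). Extremes in that array were common over all genes, with 28.1% highest and 38.9% lowest there. Eif3a, which encodes the largest subunit, stood at -0.017 and 1.02 for siControl replicates 1 and 2, and -0.039 and -0.037 for siOrm replicates 1 and 2. This was the largest difference of all, -0.54 (SE 0.33, 95% interval -1.37 to 0.29), with only siControl replicate 2 apart from the others. Its 4 probe sets stood at 0.11, 0.34, 3.11 and 0.51 in siControl replicate 2. Without the probe set at 3.11 the difference of Eif3a was -0.16, and without siControl replicate 2 it was -0.021.

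Eif3c showed the same form: 1 probe set stood at -0.78 and 2.81 in siControl against 0.31 and -0.31 in siOrm, while the other 3 lay between -0.052 and 0.036 in siControl replicate 2. The gene differed by -0.25 (SE 0.30) with that probe set and by 0.0089 without it. Eif3b, which binds eIF3a, was steadier, at 0.053 and 0.11 in siControl against -0.18 and -0.053 in siOrm and a difference of -0.20 (SE 0.13). Eif3d, the subunit that can bind caps, stood at 0.0014 and 0.16 in siControl against -0.17 and -0.0014 in siOrm and differed by -0.17 (SE 0.14). For both, siOrm replicate 1 was the lowest array. Eif3f, Eif3h and Eif3k had their highest value in siControl replicate 1 and their lowest in siControl replicate 2, with differences between groups of -0.012, 0.037 and -0.030. Eif3h, as an example, stood at 0.16 and -0.24 in siControl against -0.029 and 0.029 in siOrm, so the siOrm arrays lay between the controls. Eif3e differed by 0.084, Eif3l by 0.053, Eif3i by -0.13 and Eif3m by -0.014. A single probe set of Eif3e stood at 0.63 in siOrm replicate 1 and differed by 0.31. The others of Eif3e differed by 0.0055, 0.038 and -0.016, and with the median of probe sets the gene differed by 0.0082.

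**Figure D3:**
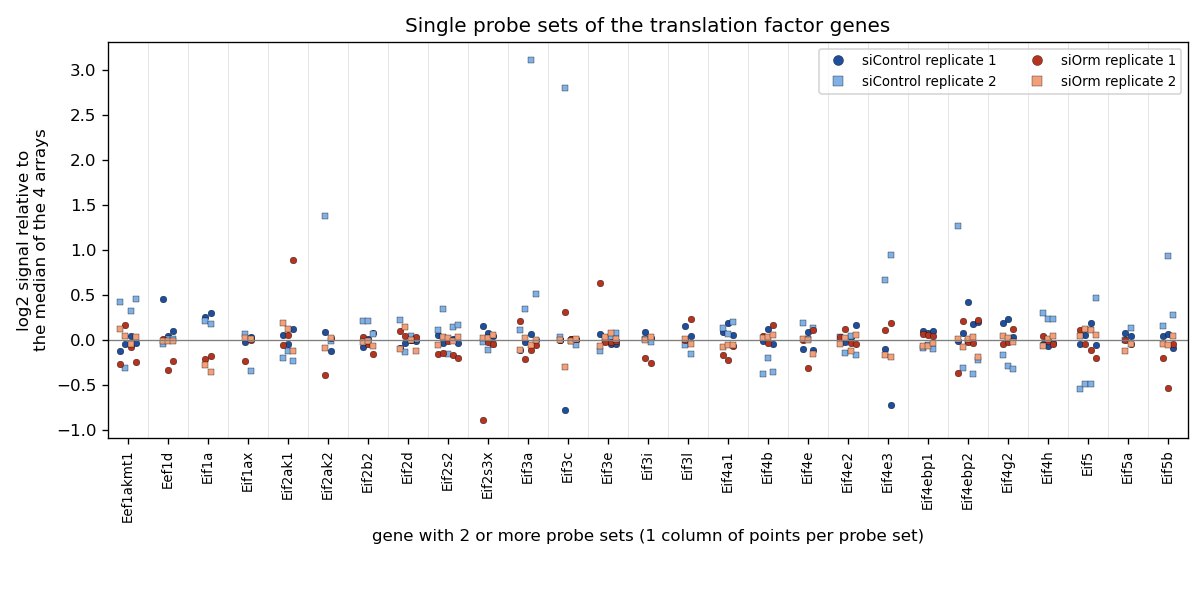
Log2 signal relative to the median of the 4 arrays (y axis) for each probe set of the 27 genes with 2 or more probe sets; each column of 4 points is a probe set, coloured by array. Single probe sets of Eif3a, Eif3c, Eif2ak2 and Eif4ebp2 stand above 1 in siControl replicate 2 while the other probe sets of these genes stay at 0.51 or lower.

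Probe sets of the same gene often disagreed on direction. Of the 27 genes with several probe sets, 12 had all differences of 1 sign and 15 had both signs. Among genes with 3 or more probe sets whose range is not given elsewhere, differences ran from -0.32 to 0.29 in Eef1akmt1, from -0.18 to -0.064 in Eif2b2, from -0.067 to 0.17 in Eif2d, from -0.21 to 0.078 in Eif2s2, from -0.50 to 0.020 in Eif2s3x, from -1.67 to 0.054 in Eif3a, from -1.01 to 0.036 in Eif3c, from -0.016 to 0.31 in Eif3e, from -0.20 to -0.032 in Eif4e, from -0.11 to 0.16 in Eif4e2, from -0.013 to 0.0007 in Eif4ebp1, from -0.010 to 0.20 in Eif4g2, from -0.14 to -0.081 in Eif4h and from -0.27 to 0.38 in Eif5. Values above 1 occurred for 4 of the 109 probe sets, 1 each in Eif3a, Eif3c, Eif2ak2 and Eif4ebp2, and all 4 fell in siControl replicate 2. Over all probe sets with a single symbol, 338 lay above 1 in siControl replicate 2 (1.96%), against 13 in its siControl partner, 25 in the first siOrm array and 0 in the second. Marker lists of several other cell types had their highest mean in the same array, and others their lowest. For macrophages, 11 of 12 markers were measured, with list means of -0.26 and 0.71 in siControl and -0.027 and -0.036 in siOrm. For stellate cells, 9 of 10 were measured, with means of -0.24 and 0.43 in siControl and -0.12 and 0.13 in siOrm. For sinusoidal endothelium, 8 of 9 gave -0.15 and 0.32 in siControl and 0.0070 and -0.043 in siOrm, with 6 of the 8 highest in siControl replicate 2. For neutrophils, 10 of 12 gave 0.15 and 0.55 in siControl and -0.12 and -0.065 in siOrm, but only 3 of the 10 were highest there (S100a8, S100a9 and Lcn2), and the list's median in that array was -0.014. For B and T cells, 8 of 10 gave 0.15 and -0.19 in siControl and 0.14 and -0.014 in siOrm, and 7 of the 8 were lowest in siControl replicate 2. For the erythroid list, 4 of 8 gave -0.078 and -0.31 in siControl and 0.38 and 0.088 in siOrm, with 3 of the 4 lowest there. For bile duct, 4 of 6 gave -0.077 and 0.14 in siControl and -0.0001 and 0.21 in siOrm, with the highest mean in siOrm replicate 2. Over all genes, 28.1% were highest and 38.9% lowest in siControl replicate 2. Which of these markers are near background cannot be seen in centred values, and their part in the high values of siControl replicate 2 was not tested.

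The cap-binding complex held the 2 helicase genes that went in opposite directions. Eif4a1 and Eif4a2 encode closely related forms of eIF4A, of which eIF4A1 is the form typical of growing cells. Eif4a1 stood at 0.11 and 0.13 for siControl replicates 1 and 2, and -0.15 and -0.067 for siOrm replicates 1 and 2. Its values were even within the groups, with a difference of -0.23 (SE 0.13, 95% interval -0.55 to 0.088), and all 3 probe sets were lower in siOrm, at -0.23, -0.26 and -0.19. Eif4a2, measured by 1 probe set, stood at -0.18 and -0.13 for siControl replicates 1 and 2, and 0.34 and 0.13 for siOrm replicates 1 and 2. Both siOrm arrays were higher, with a difference of 0.39 (SE 0.14, 95% interval 0.039 to 0.74) and limma's unadjusted p of 0.0349. When any array was left out the difference stayed between -0.27 and -0.19 for Eif4a1 and between 0.28 and 0.50 for Eif4a2. Within each array, Eif4a2 minus Eif4a1 on the centred scale was -0.28 and -0.26 in siControl against 0.50 and 0.20 in siOrm, a contrast set up after the values were seen and so given with no test. The contrast was negative for both siControl arrays and positive for both siOrm arrays, which the values of the 2 genes had already fixed.

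The other genes of the complex differed less. Eif4e, which encodes the cap-binding protein, stood at -0.044 and 0.11 in siControl against -0.067 and -0.051 in siOrm; it was below, though siControl replicate 1 nearly met siOrm replicate 2, and the difference was -0.092 (SE 0.13). Eif4b, a cofactor of the helicase, was higher in both siOrm arrays, at 0.017 and -0.31 in siControl against 0.059 and 0.035 in siOrm and a difference of 0.19 (SE 0.16), with siControl replicate 2 far below the other 3 arrays. All 3 probe sets of Eif4b had a higher mean in siOrm, from 0.041 to 0.31. Eif4h, a smaller cofactor, differed by -0.11 (SE 0.15) with all 3 probe sets lower in siOrm. Eif4e3, a divergent cap-binding protein, varied most within a group, at -0.42 and 0.81 in siControl against 0.15 and -0.18 in siOrm, so that its difference of -0.21 had the largest standard error of the 51, 0.40. Eif4g2, an eIF4G relative without an eIF4E binding site, differed by 0.072, Eif4g3 by -0.057 and the mRNA cap repressor Eif4e2 by 0.0098.

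Promoters are shown for a motif that more of these genes held than other genes did. It was chosen for printing after 9 motifs had been searched. RefSeq promoter windows of GRCm38.p6, 250 bases before to 50 bases after the annotated start, were found for 41 of the 51 genes. The E-box CACGTG, the motif bound by MYC and other basic helix-loop-helix factors and the same on both strands, was present for 11 of the 41 (26.8%), against 11.3% of the 8767 genes of the table with a window and 8.09% of all 27025 genes. Stretches of 60 bases from before the start are printed here, 5′ to 3′ on the gene's strand, with the E-box in capitals.
Eif4a1, chr11:69672580-69672639, minus strand: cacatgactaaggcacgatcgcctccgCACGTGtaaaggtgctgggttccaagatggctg
Eif4e, chr3:138527177-138527236, plus strand: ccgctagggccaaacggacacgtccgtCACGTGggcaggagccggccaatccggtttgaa
Eif4h, chr5:134639473-134639532, minus strand: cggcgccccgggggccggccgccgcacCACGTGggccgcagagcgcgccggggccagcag
Eif5a, chr11:69921428-69921487, minus strand: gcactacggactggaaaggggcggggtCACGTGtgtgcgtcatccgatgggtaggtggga
Eif3f, chr7:108934320-108934379, plus strand: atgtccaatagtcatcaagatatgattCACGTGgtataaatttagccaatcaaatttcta
Eef2, chr10:81176561-81176620, plus strand: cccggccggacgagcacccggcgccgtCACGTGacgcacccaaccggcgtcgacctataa
The others with the motif were Eef1aknmt, Eef2k, Eif1b, Eif3a and Eif3k. The motif began 189 bases before the start in Eif4a1 and 43 before it in Eef2. Members with the E-box had a median difference of -0.11, from -0.54 for Eif3a to 0.18 for Eef2k, and those with a window but no E-box had -0.064. Both siOrm arrays were lower for 4 of the 11 and higher for 0, against 8 and 3 of the other 30 and 15.3% and 17% of all genes. The 4 include Eif3a, whose motif began 22 bases after the start. A link between the motif and the differences was not tested. The sequences printed here include genes with differences from -0.23 (Eif4a1) to -0.012 (Eif3f). The GC box GGGCGG, searched on both strands, was present for 75.6% of the 41 genes and 64.1% of the genes of the table; the ETS site CCGGAAG for 34.1% and 17.8%; the CCAAT box CCAAT for 34.1% and 42.2%; the TATA box TATAAA for 9.76% and 10.7%. The ATF4 composite site TTGCATCA was found in 0 of the 41 windows and in 0.855% of the genes of the table. Median GC content was 61.3% in the windows of the 41 genes and 60% over the table. Other searches were the cyclic AMP response element TGACGTCA, held by 1 of the 41 genes (2.44%, against 3.14% of the table), and the endoplasmic reticulum stress element, held by 0 (0.194% of the table). A pyrimidine tract that begins with C near the start, as in TOP mRNAs, was present for 26.8% and 23.8%. A match is a description of letters and not a binding site.

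Proteins that hold eIF4E back showed little difference. Eif4ebp1, which encodes the main target of mTORC1 in this step, stood at 0.093 and -0.084 for siControl replicates 1 and 2, and 0.056 and -0.058 for siOrm replicates 1 and 2. In all but 1 of its 3 probe sets siControl replicate 1 was highest and siControl replicate 2 lowest, and the groups overlapped; the difference was -0.0056 (SE 0.14). Eif4ebp2, at 0.17 and 0.070 in siControl against 0.0013 and -0.044 in siOrm, had both siOrm arrays lower, with a difference of -0.14 (SE 0.13). Of its 5 probe sets, however, 1 differed by -0.81 and the rest by -0.21 to 0.18, and the gene differed by 0.024 without the first. Eif4enif1, which carries eIF4E into the nucleus, differed by 0.037 (SE 0.15). Eif5a, whose product carries the amino acid hypusine and helps ribosomes past difficult peptide bonds, stood at 0.061 and 0.064 in siControl against -0.024 and -0.080 in siOrm; its groups did not overlap, and it differed by -0.11 (SE 0.13).

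Among the 7 elongation factor genes, 2 were below, both of them subunits of the exchange factor, and 0 were above. Over all genes the shares were 15.3% and 17%. The highest value of 6 of the 7 fell in siControl replicate 1, where 27.3% of all genes had theirs. Eef1a1, which encodes the main eEF1A of most tissues, stood at 0.056 and -0.040 for siControl replicates 1 and 2, and -0.029 and 0.029 for siOrm replicates 1 and 2, a difference of -0.0082 (SE 0.13, 95% interval -0.33 to 0.31). Eef2, the translocase, stood at 0.13 and -0.11 in siControl against -0.025 and 0.025 in siOrm and differed by -0.013 (SE 0.14, 95% interval -0.37 to 0.35). In both genes the siOrm arrays lay between the controls. Eef1b2, which encodes the alpha subunit of the exchange factor eEF1B, stood at 0.18 and 0.036 in siControl against -0.18 and -0.036 in siOrm, with both siOrm arrays lower and a difference of -0.21 (SE 0.14). Eef1d, its delta subunit, stood at 0.20 and -0.0080 in siControl against -0.18 and -0.011 in siOrm and differed by -0.19 (SE 0.15), with its 3 probe sets between -0.21 and -0.18. The gap between groups was narrow for Eef1d, since siControl replicate 2 and siOrm replicate 2 nearly coincided.

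Eef1e1, a component of the aminoacyl-tRNA synthetase complex, differed by -0.087, with its lowest value in siOrm replicate 1. Eef1a2, the form of muscle and neurons, stood at 0.032 and -0.24 in siControl against 0.027 and -0.027 in siOrm and differed by 0.10 (SE 0.15). Eef2k, the kinase that inhibits eEF2, stood at 0.025 and -0.23 in siControl against 0.18 and -0.025 in siOrm and differed by 0.18 (SE 0.16). Both of these had their lowest value in siControl replicate 2, and without that array the differences were -0.032 and 0.050. The 3 methyltransferase genes of elongation factors had lower means in siOrm. Eef2kmt, which methylates eEF2, stood at 0.056 and 0.15 in siControl against -0.056 and -0.072 in siOrm with groups that did not overlap and a difference of -0.16 (SE 0.13). Eef1akmt1 differed by -0.12 and Eef1aknmt by -0.11, both with overlapping groups.

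**Figure D4:**
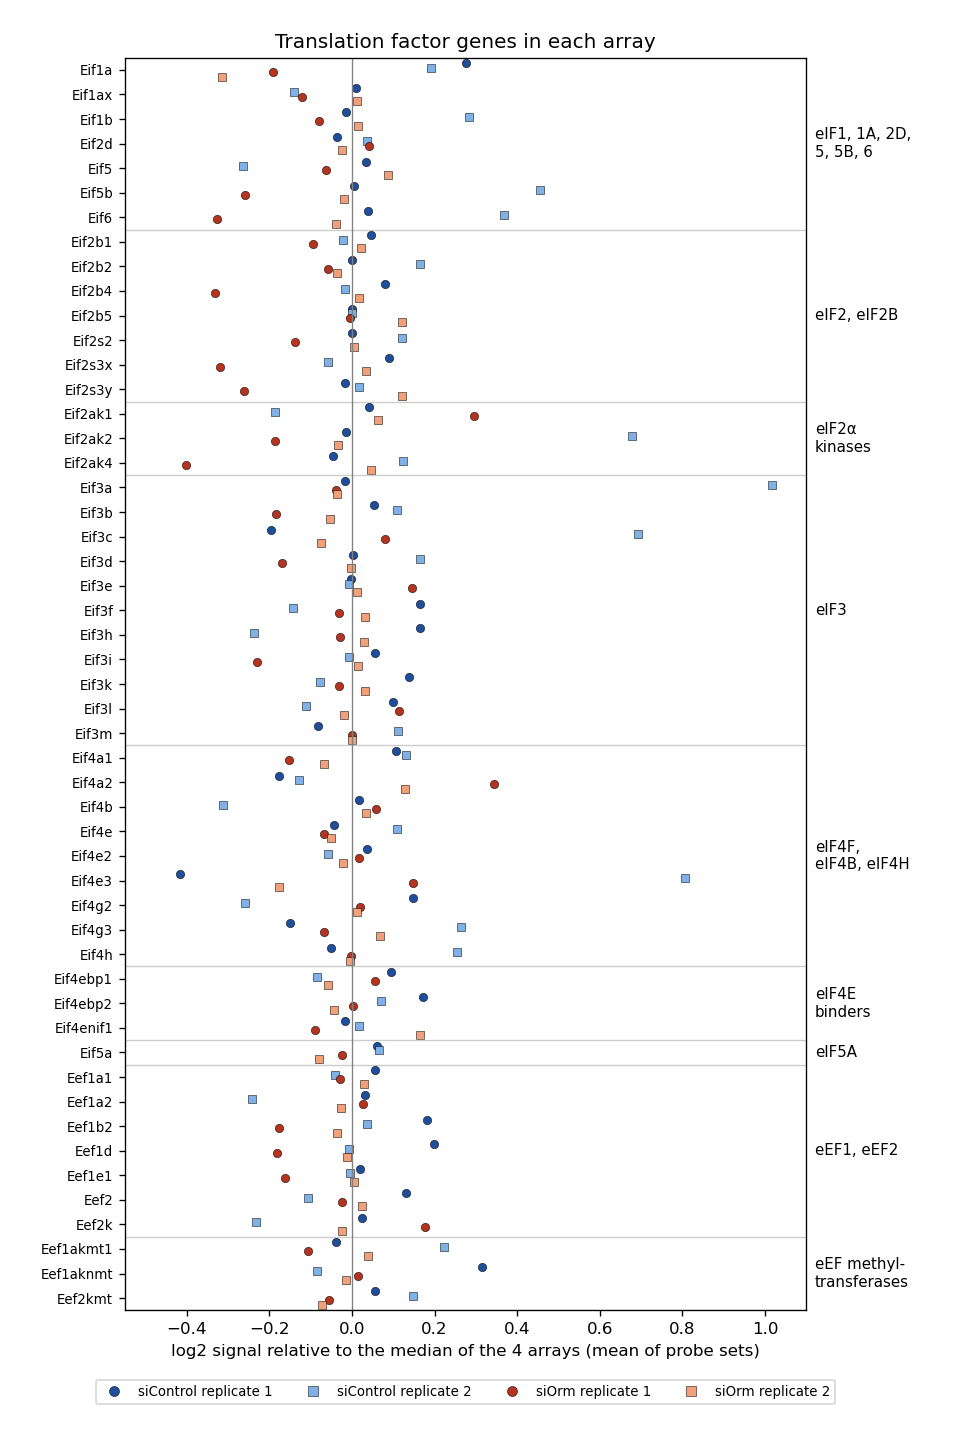
Log2 signal of each of the 51 genes in each of the 4 arrays (x axis, relative to the median of the 4 arrays, mean of probe sets), with genes ordered by role and arrays marked by colour and shape. The points farthest to the right are siControl replicate 2 values of Eif3a (1.02), Eif4e3 (0.81), Eif3c (0.69) and Eif2ak2 (0.68).

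Other genes of translation were read in the same way. Of 20 measured genes of the cytosolic aminoacyl-tRNA synthetase list, 8 were below and 0 above, beside 15.3% and 17% of all genes. The mean was lower in siOrm for 19 of the 20, and for 5221 of all 10923 genes. Their median difference in this list was -0.13. Iars, Wars and Rars, for isoleucine, tryptophan and arginine, differed by -0.30 (SE 0.15), -0.20 (SE 0.13) and -0.26 (SE 0.16). Iars stood at 0.063 and 0.18 in siControl against -0.30 and -0.063 in siOrm, Wars at 0.11 and 0.13 in siControl against -0.043 and -0.13 in siOrm and Rars at 0.019 and 0.34 in siControl against -0.13 and -0.019 in siOrm; all of these were below. Array medians of this list came to 0.069 and 0.033 for siControl, then -0.083 and 0.0042 for siOrm, so that siOrm replicate 1 was again the lowest. Without that array the median difference of the list was -0.081. The limma fit called 0 of them. Of the 46 ribosomal protein genes found by symbol, 12 were below and 0 above, beside 15.3% and 17% of all genes. The lowest value of 38 of them fell in siOrm replicate 1, against 28.4% of all genes. Their median difference was -0.10. That median shrank to -0.027 when siControl replicate 1 was left out and to -0.030 when siOrm replicate 1 was. It grew to -0.16 when siControl replicate 2 was left out and to -0.18 when siOrm replicate 2 was. The difference between these lists was not tested.

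Termination and recycling genes counted 2 below and 1 above of 9, beside 15.3% and 17% of all genes. Their median was -0.096, which was -0.0023 without siOrm replicate 1 and -0.18 without siOrm replicate 2. Pelo, which frees stalled ribosomes, was even within the groups, at 0.18 and 0.15 in siControl against -0.18 and -0.15 in siOrm and a difference of -0.33 (SE 0.13). Mcts1, a recycling factor, differed by 0.17 (SE 0.13) and Gspt2, a release factor, by -0.16 (SE 0.17). The values were -0.11 and -0.038 in siControl against 0.038 and 0.15 in siOrm for Mcts1, which was above, and -0.047 and 0.27 in siControl against -0.14 and 0.047 in siOrm for Gspt2, whose groups overlapped. Poly(A) binding proteins and mRNA helicases counted 3 below and 0 above of 9, beside the same 15.3% and 17% of all genes. Pabpc4 stood at 0.16 and 0.081 in siControl against -0.079 and -0.095 in siOrm and Pabpc1 at 0.0058 and 0.31 in siControl against -0.20 and -0.0058 in siOrm, and both genes were lower in both siOrm arrays. Ddx6, an mRNA decay helicase, stood at -0.057 and 1.33 in siControl against -0.57 and 0.11 in siOrm, so its difference of -0.86 belonged to siControl replicate 2 and was -0.17 without it.

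Among 12 genes that act on eIF2 alpha phosphorylation or modify eIF5A and eEF2, 5 were below and 1 above, beside 15.3% and 17% of all genes. The mean was lower in siOrm for 7 and higher for 5. Their median difference was -0.0755, but -0.0055 without siOrm replicate 1 and -0.19 without siOrm replicate 2. SiOrm replicate 1 held the lowest value for 8 of the 12, against 28.4% of all genes. The genes named next had the smallest unadjusted p of the list. Impact, which restrains GCN2, stood at 0.29 and 0.085 in siControl against -0.63 and -0.085 in siOrm, a difference of -0.55 (SE 0.21). Dnajc3, an endoplasmic reticulum co-chaperone once described as an inhibitor of eIF2 kinases, stood at 0.26 and 0.19 in siControl against -0.49 and -0.028 in siOrm and differed by -0.48 (SE 0.19). In both, siOrm replicate 1 was the lowest array, and without it the differences were -0.28 and -0.25. Dph7, of the diphthamide pathway of eEF2, stood at 0.10 and 0.23 in siControl against -0.10 and -0.10 in siOrm, a difference of -0.27 (SE 0.13).

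Of 18 genes of mTORC1 and MNK signalling, which acts on eIF4E and its binding proteins, 3 were below and 4 above, shares near those of all genes. The median was 0.050, but -0.028 without siControl replicate 2, 0.025 without siOrm replicate 1, 0.021 without siOrm replicate 2 and 0.015 with probe sets without shared sequence. Ddit4, a stress-induced inhibitor of mTORC1, stood at 0.025 and 1.38 in siControl against -0.17 and -0.025 in siOrm; its difference of -0.80 was -0.12 without siControl replicate 2. Deptor, another inhibitor, stood at -0.064 and -0.23 in siControl against 0.096 and 0.089 in siOrm and differed by 0.24 (SE 0.13), while Rraga, a GTPase of amino acid sensing, stood at 0.0070 and 0.38 in siControl against -0.21 and -0.0070 in siOrm and differed by -0.30 (SE 0.18). Of 6 mitochondrial translation factors, 2 were below and 1 above, beside 15.3% and 17% of all genes. Their median was 0.013, which ran from -0.038 (without siOrm replicate 2) to 0.040 (without siOrm replicate 1). Gfm1, an elongation factor, stood at -0.15 and 0.023 in siControl against 0.33 and -0.023 in siOrm, with overlapping groups and a difference of 0.22 (SE 0.17). Gfm2, a recycling factor, stood at 0.16 and 0.011 in siControl against -0.098 and -0.011 in siOrm and differed by -0.14 (SE 0.13). Mrrf, also of recycling, stood at -0.010 and -0.12 in siControl against 0.010 and 0.010 in siOrm and differed by 0.075 (SE 0.13). No gene of these lists passed over all genes (limma, adjusted p of at least 0.994 for those named).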

How the data were processed

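Liver RNA was hybridised to 4 arrays of 1 colour each, 2 for siControl and 2 for siOrm. The authors deposited 1 table of 18852 probe sets as log2 signal (base assumed), centred on the median of the 4 arrays for each probe set, and no row median lay farther from 0 than 4.8e-07. For software, normalization and genome build: not given in the sources used here. The series text names an Affymetrix array, while the labels' protocols name another maker's labelling and cultured cells; which applies is unclear.

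Probe sets were named by the platform annotation: 17209 had 1 symbol, 564 several, 1044 were not listed or had no symbol, and 35 were controls. Those with several symbols, 5 of them with an Eif or Eef symbol, were left out. Probe sets were averaged per gene. Group differences were tested by limma (version 3.58.1, under R version 4.3.3) in two-sided form (lmFit, then eBayes with a constant variance prior with 3.60 degrees of freedom beside 2 residual ones), with Benjamini-Hochberg adjustment over 10923 genes and a threshold of 0.05; no filter on dim probe sets was possible. Group numbers in the titles were not used as pairs. The number of arrays limits the precision.

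The members and the lists were chosen with earlier results of these data known, so lists are described by counts and medians and get no test. The role lists were adjusted after the files were read, when the methyltransferases and eIF5A were set apart. All members are named with their difference. Values per array are given for a list of core members, the 12 members with the smallest p, others where a result turned on them, and up to 3 genes of each further list. Of the core members, Eif1, Eif2s1 and Eif4g1 were not analysed here. Alternatives were the median of probe sets, probe sets without shared sequence (38 of the 51 genes), quantile normalization, arrays centred on their median, other variance priors, a replicate block and each array left out. Probe sets without shared sequence means those whose names do not end in _a_at, _s_at or _x_at. The ending _a_at need not mean sequence shared with another gene, so a gene without such a probe set may still have its own. Leaving out far probe sets was added after seeing the data.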

Additional observations from a re-analysis of the deposited data

How the results depend on the processing

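No translation factor passed the test in the alternatives that kept all 4 arrays; a variance prior with a trend called 11 genes over the table and 0 of the 51. Without siControl replicate 1, 1 of 51 did, Eif3a (limma, adjusted p = 0.0305), in a fit that called 229 genes, with siControl replicate 2 as the single control; the number called ran from 0 to 1 over the arrays left out. Lone arrays are assumed there to vary like the others. The number with an unadjusted p under 0.05 was 1 with probe sets without shared sequence, which cover 38 of the 51 genes and not Eif1a. It was 4 with the replicate block. The shares of all genes with such a p in these fits are not given here. Whether the replicate numbers mark pairs is not stated. Deviations of same-numbered arrays correlated at 0.132 over genes, which with 2 arrays per group cannot show whether the arrays are paired. The block changed no adjusted call. The median difference was -0.050 with the median of probe sets, -0.053 over the 38 genes with probe sets without shared sequence, -0.058 after quantile normalization and -0.057 without far probe sets. It ran from -0.10 to -0.014 over the arrays left out. Counts of genes below ran from 15 to 30 and above from 7 to 18 in those fits. Over all genes, 23.5% to 36.8% were below and 29.2% to 44.6% above in the same fits. With the median of probe sets 2 were above, for which the share of all genes is not given here.

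The direction held in every alternative run on the gene for 23 of the 51, 18 lower and 5 higher in siOrm. For 7 of these (Eef1b2, Eef1d, Eif1a, Eif2b2, Eif2b4, Eif5a and Eif6) no value was left once names ending in _a_at, _s_at or _x_at were dropped. With the median of probe sets Eif2d turned to -0.0094, Eif3c to 0.0013 and Eif4ebp2 to 0.011; after quantile normalization Eif3m turned to 0.0073, Eif4e2 to -0.011 and Eif4g3 to 0.018. With probe sets without shared sequence Eef1akmt1 turned to 0.029. Without far probe sets Eif2ak2 turned to 0.087, Eif3c to 0.0089 and Eif4ebp2 to 0.024. For 26 genes leaving out an array turned the direction, and the cause was not tested. Their differences ranged as follows: Eef1a1 -0.056 to 0.040, Eef1a2 -0.032 to 0.24, Eef1akmt1 -0.26 to 0.0062, Eef1aknmt -0.31 to 0.085, Eef2 -0.13 to 0.11, Eif1ax -0.063 to 0.087, Eif2ak4 -0.44 to 0.0095, Eif2b1 -0.11 to 0.0072, Eif2b5 -0.0046 to 0.12. Likewise Eif2d -0.026 to 0.046, Eif2s3x -0.33 to 0.018, Eif2s3y -0.26 to 0.12, Eif3c -0.69 to 0.20, Eif3f -0.17 to 0.14, Eif3h -0.16 to 0.24, Eif3k -0.14 to 0.077, Eif3l -0.052 to 0.16, Eif3m -0.11 to 0.083. The rest were Eif4e2 -0.037 to 0.057, Eif4e3 -0.82 to 0.40, Eif4ebp1 -0.094 to 0.083, Eif4enif1 -0.090 to 0.16, Eif4g2 -0.13 to 0.28, Eif4g3 -0.26 to 0.15, Eif4h -0.26 to 0.046, Eif5 -0.022 to 0.28. Signal over background, which would show which probe sets are reliable, cannot be seen in this table.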

Other observations

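Of the probe sets left out for carrying several symbols, 5 included a translation factor symbol. The probe set shared by Eef1g, the gamma subunit of eEF1B, and a predicted gene stood at 0.14 and 0.044 in siControl against -0.18 and -0.044 in siOrm, with both siOrm arrays lower. That shared by Eif4a3, an eIF4A relative of the exon junction complex, and a predicted gene stood at 0.0059 and 0.0062 in siControl against -0.17 and -0.0059 in siOrm, with both siOrm arrays lower but siOrm replicate 2 close to the controls. The 3 probe sets of Eif3j1 and Eif3j2 differed by -0.20, 0.0044 and -0.13.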
